A study of Mus musculus with 150 samples.

Results

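The 5 neuronal intermediate filament genes Nefh, Nefm, Nefl, Ina and Prph were taken by name from the 54082 genes measured in 150 single mouse somatosensory neurons, and all 5 were detected. The cells came from CD1 mice and were labelled by the skin they innervated: 45 were hairy and 1 carried both labels and entered no comparison, and all the others were glabrous (hairless). They came from 10 litters, 8 at postnatal day 5 and 2 at postnatal day 4, and no genotype or treatment differed between them. RNA was amplified by Smart-seq, which copies whole polyA transcripts. The sources used here do not state how the skin of each neuron was determined.

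Neurofilaments are ropes of protein that fill the axon and set its calibre, and therefore bear on how fast it conducts. They are built from a light chain (Nefl), which forms the core, and from medium (Nefm) and heavy (Nefh) chains, whose long tails space neighbouring filaments. Alpha-internexin (Ina) and peripherin (Prph) are further subunits that can join the same filament. In sensory ganglia the heavy chain is a classical label of large, myelinated A-fibre neurons, and peripherin a classical label of small, unmyelinated C-fibre neurons.

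Total counts per cell ran from 395811 to 1053854, so that 1 count was worth 0.949 to 2.53 CPM (counts scaled to a common library total), and 4360 to 15865 genes were detected per cell. All 5 sensory neuron markers (Tubb3, Snap25, Pou4f1, Isl1 and Avil) were present. Their summed level had a median of 4085 CPM in hairy cells (range 60.7 to 5894) and 4879 CPM in glabrous cells (range 289 to 7031). Markers of myelinating Schwann cells, which wrap myelinated axons, had a median sum of 3122 CPM in hairy cells (range 761 to 40456). In glabrous cells it was 1562 CPM (range 52.5 to 16409). There were 6 cells with fewer than 10000 detected genes, 1 hairy and 5 glabrous. Levels below are CPM of the raw library total. Nothing in the labels says which cells of a litter shared an animal, so p-values measure the spread between litters.

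Nefh divided the neurons into a high and a low set. Its level was below 500 CPM in 46 of the 150 cells and at least 500 CPM in the others. The 3 values just below the cut were 305, 330 and 377 CPM, the 3 just above it were 623, 649 and 650 CPM, and 0 cells lay between 400 and 600 CPM. On the scale of log2(CPM + 1), 59 cells fell between 10 and 11 and 32 between 11 and 12, whereas the bins from 6 to 7, from 7 to 8 and from 8 to 9 held 11, 16 and 7 cells. A description by 2 Gaussian components had a Bayesian information criterion 106.2 lower than one by a single component, with component means of 1736 and 160 CPM and 60.8% of cells in the upper one. The same difference was 82.4 for Nefm, 36.4 for Nefl, 52.7 for Ina and 193 for Prph, but the components were not the same cells from gene to gene: 90.7% of cells were in the upper component of Prph and 90.8% in that of Ina.

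**Figure D1:**
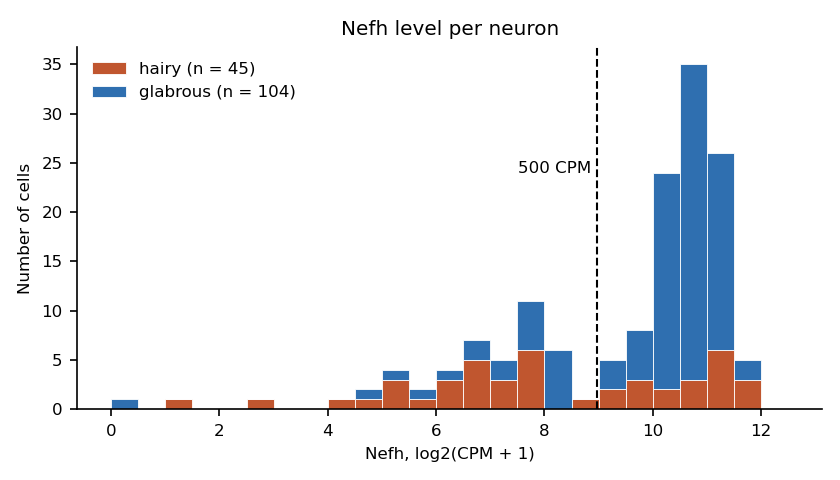
Number of cells (y axis) by Nefh level, log2(CPM + 1) (x axis, bins of 0.5), with hairy cells (orange) stacked under glabrous cells (blue) and the 500 CPM cut as a dashed line. The upper mode holds 19 hairy and 84 glabrous cells, and the lower one 26 hairy and 20 glabrous cells.

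Between the 2 sets, the medium and light chains followed the heavy chain, and peripherin did not. Nefm had a median of 6747 CPM in the Nefh-high cells, with a range of 1089 to 22791, and of 234 CPM in the Nefh-low cells, with a range of 34.7 to 2485. Nefl had a median of 9289 CPM in the Nefh-high cells and 1390 CPM in the Nefh-low cells. Nefl transcripts therefore stayed abundant in cells with little Nefh. Prph had a median of 2802 CPM in the Nefh-high cells and 3076 CPM in the Nefh-low cells, and its 90th percentile over all cells was 2.18 times its 10th. That ratio was 28.1 for Nefh, 87.4 for Nefm, 14.6 for Nefl and 24.6 for Ina. Ina had a median of 75.3 CPM in the Nefh-high cells and 204 CPM in the Nefh-low cells. These 2 sets were made from Nefh, so no test was run between them. By mean CPM over all genes, Nefl ranked 3, Nefm 6, Prph 22, Nefh 63 and Ina 1480.

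Across the cells with a single skin label, Spearman's rho was 0.93 between Nefm and Nefl, 0.83 between Nefh and Nefl, and 0.79 between Nefh and Nefm. Prph had a rho of 0.23 with Nefh and 0.02 with Nefl. Inside the Nefh-high cells among them, Nefm and Nefl still had a rho of 0.87, against 0.44 for Nefh and Nefm. By skin, Nefh and Nefm had a rho of 0.74 in the 19 hairy and 0.34 in the 84 glabrous Nefh-high cells, and Nefh and Nefl 0.86 in hairy and 0.43 in glabrous ones. In the 46 Nefh-low cells the medium and light chains had a rho of 0.26. Within the sets, Prph did vary with Nefh, with a rho of 0.33 in Nefh-high and 0.51 in Nefh-low cells. Over the 41 Nefh-low cells with at least 10000 genes that rho was 0.46. The Nefh-low cells include 10 that were low in Prph and in sensory neuron markers, described below. In the Nefh-low cells Nefh had a rho of 0.19 with Nefm and 0.54 with Nefl. By skin, Nefh and Prph had a rho of 0.23 in hairy and 0.37 in glabrous Nefh-high cells. These are descriptions across cells that share libraries and litters. By position, Nefl (GRCm38 chr14:68083863-68089095, plus strand) lies within the span of Nefm (chr14:68082590-68124846, minus strand), and 1108 exonic bases are annotated to both in GENCODE. The libraries do not mark strand, so reads of these bases cannot be told apart and the values of Nefm, in cells with little of it above all, are uncertain. Nefh (chr11:4938754-4948064, minus strand), Ina (chr19:47014698-47025327, plus strand) and Prph (chr15:99055174-99058978, plus strand) stand at other loci.

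Nefh-high cells were typed by the growth factor receptor with the largest CPM. Those described here are the Ntrk3-dominant (16 cells), the Ntrk2-dominant (17 cells) and the Ret-dominant (30 cells), and the other Nefh-high cells enter the pooled Nefh-high values only. Ntrk3 encodes the receptor of neurotrophin-3, Ntrk2 that of brain-derived neurotrophic factor, and Ret the signalling receptor of the GDNF family. All 3 mark classes of A-fibre touch neuron. Calca, which encodes the pain-fibre peptide CGRP, had medians of 0.64 CPM in Ntrk3-dominant, 0 CPM in Ntrk2-dominant and 1.46 CPM in Ret-dominant cells. Of the Nefh-low cells, 19 had Tafa4, a marker of C-fibre touch neurons, as the larger of Tafa4 and Calca, 19 had Calca, and 8 had neither at 100 CPM. Other C-fibre touch markers had medians in the Tafa4 class of 193 CPM (Zfp521), 165 CPM (Cdh9), 5.35 CPM (Th) and 2.68 CPM (Slc17a8). Ret was not limited to Nefh-high cells, with medians of 461 CPM in the Tafa4 and 466 CPM in the Calca class.

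**Figure D2:**
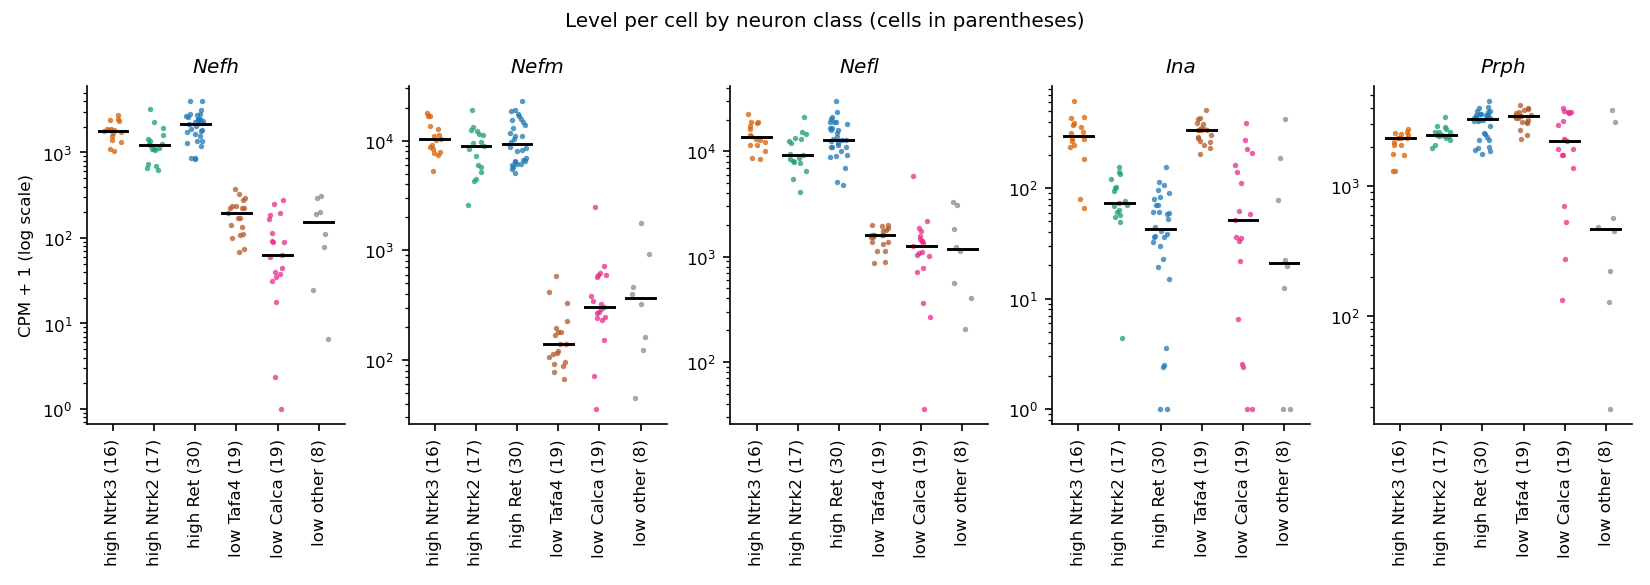
CPM + 1 per cell on a log axis (y) for each gene, by neuron class (x, cells in parentheses), with each point a cell and the bar the class median. Ina is high in the Ntrk3-dominant and Tafa4 classes, with medians of 297 and 338 CPM. The 3 Nefh-high classes shown lie above the Nefh-low classes in Nefm and Nefl medians, and the other Nefh-high cells are not shown.

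Ina was higher in Ntrk3-dominant than in Ntrk2- or Ret-dominant neurons. In glabrous skin, sums per litter gave Ntrk3-dominant neurons 182, 303 and 369 CPM of Ina as the lowest, median and highest of 6 litters. The Ntrk2-dominant neurons had 3.43, 79.6, 81.1, 102.1 and 119.3 CPM in 5 litters, and the Ret-dominant neurons had 39.8, 57.4 and 81.7 CPM as the lowest, median and highest of 6. The lowest Ntrk3-dominant litter sum was above the highest of either other type. Gaps of this kind were not counted over all genes. The Ntrk3-dominant sums of litters H, L (the lowest) and P_Q were 1 cell each. So were the Ntrk2-dominant sums of L and P_Q and the Ret-dominant sums of A_B and C_D. Single cells overlapped, since 2 of the 16 Ntrk3-dominant cells had 65.2 and 79.5 CPM and the highest Ret-dominant cell had 153.7 CPM. The means were 296 ± 70.5 CPM for Ntrk3 (SD, n = 6 litters), 77.1 ± 44.3 CPM for Ntrk2 (n = 5) and 60.3 ± 15.2 CPM for Ret (n = 6). With the litter as a block, the log2 change of Ina was 2.45 ± 0.34 (SE) for Ntrk3 over Ret (edgeR adjusted p = 0.000346) and 2.00 ± 0.31 for Ntrk3 over Ntrk2 (edgeR adjusted p = 0.0008). All type contrasts come from 1 model over 25 litter sums of 9 litters, sums of the other Nefh-high cells included, and so share samples. The litters holding both types numbered 3 for Ntrk3 and Ret and 5 for Ntrk3 and Ntrk2. Ntrk2 over Ret came to 0.44 ± 0.33 (edgeR adjusted p = 0.696). Of the 14 Nefh-high cells with at least 200 CPM of Ina, a level chosen after the values were seen, 13 were Ntrk3-dominant.

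Of these 3 types, the one with most Ina had the lowest mean Prph. Its litter sums averaged 2327 ± 304 CPM in Ntrk3-dominant neurons (SD, n = 6 litters), 2589 ± 206 CPM in Ntrk2-dominant neurons (n = 5) and 3411 ± 472 CPM in Ret-dominant neurons (n = 6). The highest Ntrk3-dominant litter, at 2746 CPM, overlapped the lowest Ret-dominant litter, at 2684 CPM. Prph fell in Ntrk3-dominant relative to Ret-dominant neurons by 0.65 on the log2 scale (SE 0.12, edgeR adjusted p = 0.005). The change for Ntrk2 over Ret was -0.44 ± 0.13 (edgeR adjusted p = 0.096) and for Ntrk3 over Ntrk2 -0.21 ± 0.11 (edgeR adjusted p = 0.426). Neither passed.

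Nefm and Nefl did not pass the test between any pair of these 3 types. Nefm averaged 9879 ± 2123 CPM in Ntrk3-dominant (SD, n = 6 litters), 7713 ± 3041 CPM in Ntrk2-dominant (n = 5) and 10475 ± 2403 CPM in Ret-dominant neurons (n = 6). Nefl averaged 13783 ± 1905 CPM, 10562 ± 3566 CPM and 13598 ± 3123 CPM in the same order. For Ntrk3 over Ret the log2 changes were 0.33 ± 0.25 for Nefm (edgeR adjusted p = 0.696) and 0.35 ± 0.22 for Nefl (edgeR adjusted p = 0.565), and for Ntrk2 over Ret they were -0.07 ± 0.26 (edgeR adjusted p = 0.973) and -0.04 ± 0.23 (edgeR adjusted p = 0.979). Ntrk3 over Ntrk2 gave 0.40 ± 0.23 for Nefm (edgeR adjusted p = 0.492) and 0.39 ± 0.20 for Nefl (edgeR adjusted p = 0.401). Without the filter on low counts both genes passed for Ntrk3 over Ret (edgeR adjusted p = 0.0162 and 0.00264) and for Ntrk3 over Ntrk2 (edgeR adjusted p = 0.000293 and 0.000113). Of 31536 genes in that fit, 799 and 950 passed in the same order. Of the 4 genes tested (Nefh set the cut), 2 passed for Ntrk3 over Ret, 1 for Ntrk3 over Ntrk2 and 0 for Ntrk2 over Ret, against 2.63%, 3.58% and 1.53% of all 12721 genes. For Ntrk3 over Ret 1.38% of genes passed as higher and 1.25% as lower, and for Ntrk3 over Ntrk2 1.78% and 1.81%. For Ntrk2 over Ret, 1 of the 4, Prph, was under an unadjusted p of 0.05, as were 1536 of the 12721 genes. DESeq2 also called Prph (adjusted p = 0.0151), among 531 of the 12721 genes.

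Nefh itself, a description because the cut used it, averaged in glabrous skin 1756 ± 305 CPM in Ntrk3-dominant, 1364 ± 616 CPM in Ntrk2-dominant and 2111 ± 382 CPM in Ret-dominant litters (SD, n = 6, 5 and 6). The order of the means was thus Ret, Ntrk3 and Ntrk2, and neighbours in that order differed by less than the larger SD of the pair. The types did not come from the same litters. In the same order, litter I had 2402, 1957 and 1332 CPM and litter P_Q 2020, 1575 and 700 CPM. Litter E_F_G ran the other way, with 1423, 1548 and 1559 CPM. The median summed level of 4 satellite glia markers was 710 CPM in Ntrk3-dominant, 1126 CPM in Ntrk2-dominant and 1678 CPM in Ret-dominant cells. Its part in the differences between types was not tested.

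To set the chains side by side, CPM was divided by the median transcript length. Per kilobase, the median level over all cells was 2063 CPM for Nefl, 1539 for Prph, 1378 for Nefm, 332 for Nefh and 24.5 for Ina. The sources used here do not state whether the deposited counts were already scaled for length. In the Nefh-high cells the median ratio of Nefl to Nefh was 6.72 and of Nefm to Nefh 4.55, and Nefl exceeded Nefm 1.54 times. In the Nefh-low cells the same medians were 12.1, 2.34 and 4.77. Prph made up a median of 21.3% of the 5 genes' summed level in Nefh-high cells and 72.3% in Nefh-low cells. Without division by length these shares were 12.6% and 58.8%.

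The share of Nefh in the 3 neurofilament chains was 6.07% in Ntrk3-dominant, 5.57% in Ntrk2-dominant and 6.32% in Ret-dominant cells (medians of 16, 17 and 30 cells). The middle 50% of Ntrk3-dominant cells, 5.69% to 6.55%, lay within that of Ret-dominant cells, 5.45% to 9.07%. Prph made up a median of 14.1% of the 5 genes in Ntrk3-dominant, 19.3% in Ntrk2-dominant and 18.4% in Ret-dominant cells. Among Nefh-low cells the Tafa4 class had the least medium chain relative to light chain: Nefl exceeded Nefm 10.3 times and Nefm equalled 1.03 times Nefh per kilobase. In the Calca class, Nefl exceeded Nefm 3.67 times and Nefm exceeded Nefh 6.67 times (medians of 19 cells, and of 18 for the ratio to Nefh, which leaves out the cell at 0).

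**Figure D3:**
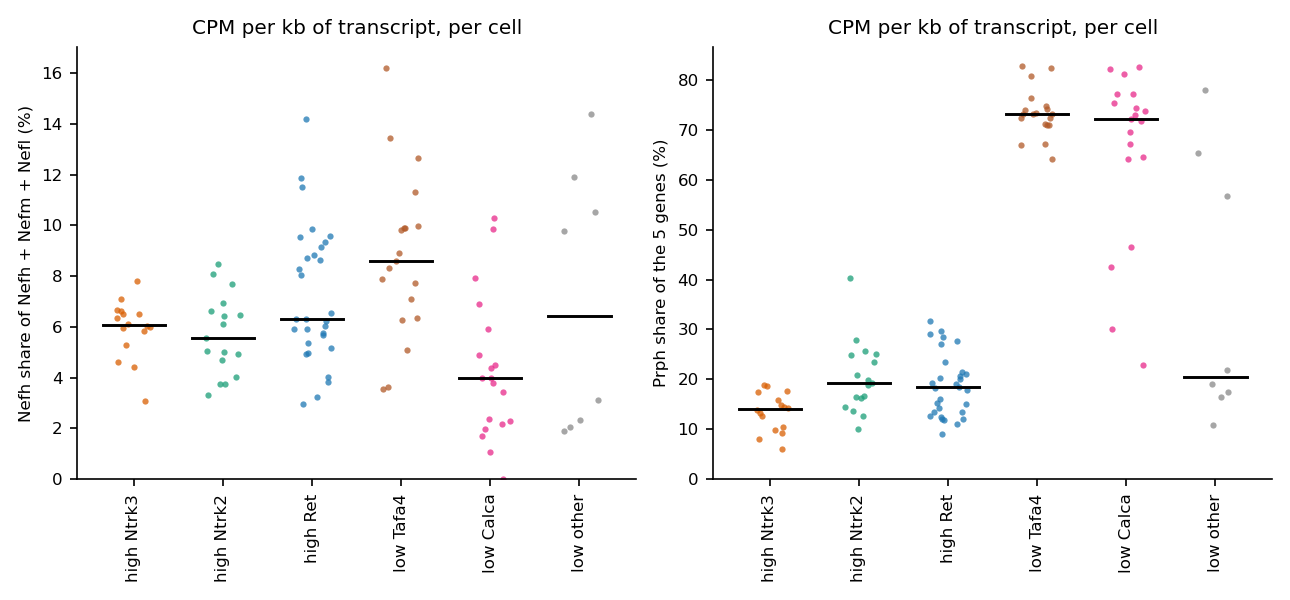
Left, Nefh as a percent of the summed Nefh, Nefm and Nefl level; right, Prph as a percent of the 5 genes (y axes, from CPM per kilobase), by neuron class (x), with each point a cell and the bar the median. In the right panel the Tafa4 and Calca classes sit at medians of 73.3% and 72.2%, above the 14.1% to 19.3% of the Nefh-high classes shown.

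Among Nefh-low cells, Ina was highest in the Tafa4 class. Litter sums over both skins gave the Tafa4 class 269, 335 and 448 CPM of Ina as the lowest, median and highest of 8 litters. The Calca class had 31.3, 100 and 225 CPM over 7 litters. The ranges did not overlap, and gaps of this kind were not counted over all genes. The highest Calca value and the Tafa4 value of litter K were 1 cell each. Of the 6 cells with under 10000 genes, 3 were in the Calca class and 0 in the Tafa4 class. The Tafa4 mean of 341 ± 54.1 CPM (SD, n = 8 litters) lay within 1 SD of the 296 ± 70.5 CPM of Ntrk3-dominant neurons. The Tafa4 class pooled 13 hairy and 6 glabrous cells, while all Ntrk3-dominant cells were glabrous. All 19 Tafa4 cells had at least 200 CPM, a level that 4 of 19 Calca cells reached. Prph averaged 3409 ± 226 CPM in the Tafa4 class and 2455 ± 826 CPM in the Calca class. No test was run between these classes.

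A small set of neurons was low in Prph. It was below 1000 CPM, a level chosen after the values were seen, in 10 cells, 3 hairy and 7 glabrous, from 5 litters. All 10 were Nefh-low, 4 in the Calca class and 6 in the class with neither marker, and 5 of them were among the 6 cells with under 10000 genes. Their median was 361 CPM of Prph, against 2954 CPM in the other 140 cells. Their sensory neuron markers summed to a median of 431 CPM, against 4879 CPM in the other cells, and their 6 Schwann cell markers to 10201 CPM, against 1648 CPM. The part of these markers in the low Prph values was not tested.

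Ina and Prph varied together in Nefh-low cells, with a Spearman's rho of 0.76 over 46 cells and 0.69 over the 41 with at least 10000 genes. The 46 include the 10 cells low in Prph and in sensory neuron markers, and the 41 include 5 of them. The part of neuron RNA content in this rho was not tested. In the Nefh-high cells the rho was 0.58 in the 19 hairy and -0.15 in the 84 glabrous cells, or -0.03 together. The promoters of this pair, the 2 members matched in the RefSeq table (GRCm38.p6), are shown as 250 bases before and 50 after the start. Capitals mark the motifs found.

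Ina, chr19:47014431-47014730, plus strand: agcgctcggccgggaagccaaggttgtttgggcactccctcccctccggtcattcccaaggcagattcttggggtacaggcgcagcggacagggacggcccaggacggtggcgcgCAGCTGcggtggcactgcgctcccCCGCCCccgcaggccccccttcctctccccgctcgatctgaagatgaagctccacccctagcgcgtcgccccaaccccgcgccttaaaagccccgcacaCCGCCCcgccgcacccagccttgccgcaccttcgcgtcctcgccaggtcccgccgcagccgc

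Prph, chr15:99054924-99055223, plus strand: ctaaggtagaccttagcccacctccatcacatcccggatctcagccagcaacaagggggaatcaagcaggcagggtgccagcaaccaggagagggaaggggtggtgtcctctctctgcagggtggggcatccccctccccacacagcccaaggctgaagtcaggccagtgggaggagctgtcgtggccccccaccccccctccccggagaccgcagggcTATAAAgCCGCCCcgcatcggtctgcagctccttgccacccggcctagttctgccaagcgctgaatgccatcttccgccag

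Both strands were searched for TATAAA (the TATA box), CCAAT (the CAAT box), GGGCGG (the GC box), TGACGTCA (the cAMP response element) and CAGCTG (an E-box). Both promoters held the GC box GGGCGG on the minus strand, printed as CCGCCC: Ina 12 bases before the start and once further upstream, and Prph 24 bases before it. Prph held TATAAA 31 bases before the start, and Ina held CAGCTG upstream of both of its GC boxes. No 2 matches overlapped. Of 32851 promoters of this length, 35.7% held the GC box, 13.6% TATAAA and 16.3% CAGCTG. The GC content was 71.7% for Ina and 64.7% for Prph, against a median of 52.7%. These matches are descriptions of letters, not binding sites.

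**Figure D4:**
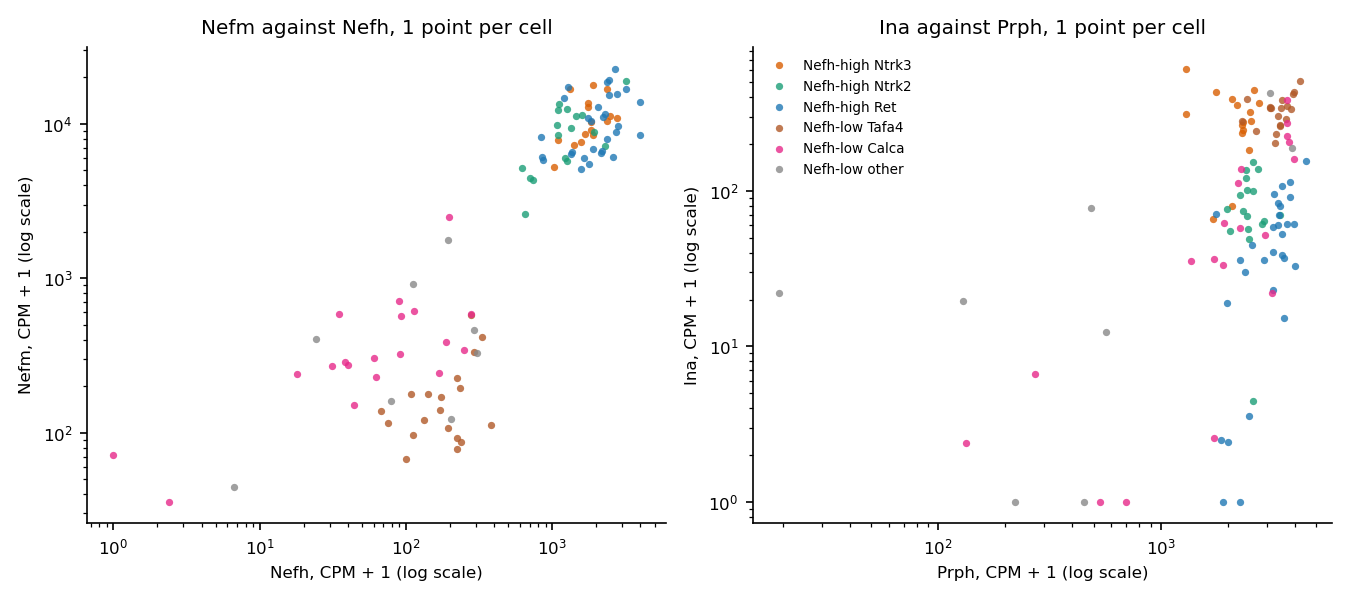
Left, Nefm against Nefh; right, Ina against Prph (CPM + 1, log axes), with each point a cell of the 6 classes shown, coloured by class; the other Nefh-high cells are not drawn. Nefm and Nefh form 2 clouds, while the Ntrk3-dominant cells stand high in Ina at moderate Prph and the Tafa4 cells high in both.

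Genes whose CPM ranked the cells most like each filament gene were sought among 10064 genes, over the cells with a single skin label. For Nefh the 4 most like it were Gas6 (rho 0.83), Lgi3 (0.83), Glrb (0.83) and Epn3 (0.82). H3f3a (-0.76), Ptma (-0.70) and Macroh2a1 (-0.68) ran most opposite to it. For Nefm they were Snap25 (0.90), of the vesicle fusion machinery, Atp1b1 (0.87), Slc17a7 (0.86), a vesicular glutamate transporter, Vamp1 (0.86) and Coro6 (0.85). For Nefl they were Vamp1 (0.90), Endod1 (0.88), Glrb (0.88), Snap25 (0.88) and Lgi3 (0.87). Ina was most like Synpr (0.68), Mctp2 (0.65), Lxn (0.64), Rtn4rl1 (0.63) and Phf24 (0.62). Prph was most like Rab27b (0.68), Anxa2 (0.66), Isl2 (0.64), Trarg1 (0.63) and Ntf3 (0.61), and Cygb (-0.50), mt-Cytb (-0.47) and mt-Nd5 (-0.44) ran most opposite to it.

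Fewer hairy than glabrous neurons were Nefh-high. In the 7 litters that held 2 or more cells per skin, the share of Nefh-high cells was 48.1% ± 32.5 in hairy and 84.9% ± 17.5 in glabrous neurons (SD, n = 7 litters), a difference of -36.8 percentage points. Litter L had 0% in hairy and 66.7% in glabrous neurons, litter O 25% and 80%, litter P_Q 46.7% and 100%, litter E_F_G 40% and 90.3%, litter K 75% and 100%, and litter H 50% and 57.1%. Litter C_D had 100% in both. The share was thus lower in hairy neurons in 6 of 7 litters and higher in none, which gave p = 0.03125 in an exact two-sided sign-flip permutation test, the smallest p that 6 differing litters allow. Without any one of those 6 litters the difference was between -41.7 and -31.8 points and the exact permutation p was 0.0625, the smallest that 5 allow. With litters of at least 1 cell per skin type (9 litters) it was -22.7 points and the exact permutation p was 0.102. Over all cells 42.2% of 45 hairy neurons were Nefh-high (exact Clopper-Pearson 95% interval 27.7% to 57.8%, counting error only), against 84 glabrous neurons, or 80.8% (71.9% to 87.8%).

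The levels summed over all neurons leaned the same way without passing the test. Nefh had 123.9, 765 and 2006 CPM as the lowest, median and highest of 7 litters in hairy neurons, against 684, 1486 and 2134 CPM in glabrous neurons. The hairy sum was the lower one in 7 of 7 litters, though the ranges overlapped. The log2 change was -1.03 ± 0.38 (SE, edgeR adjusted p = 0.422), with -0.61 ± 0.18 within the 3 litters of plate 1 and -1.46 ± 0.60 within the 4 of plate 2. For Nefm the hairy mean was 3765 ± 2898 CPM and the glabrous mean 6336 ± 1871 CPM (SD, n = 7), a log2 change of -1.13 ± 0.59 (edgeR adjusted p = 0.57) and a lower hairy sum in 4 of 7 litters. For Nefl they were 5850 ± 4397 CPM and 9454 ± 2544 CPM, a log2 change of -0.96 ± 0.41 (edgeR adjusted p = 0.49) and a lower hairy sum in 5 of 7. Prph averaged 2644 ± 390 CPM in hairy and 2956 ± 529 CPM in glabrous neurons, with a log2 change of -0.17 ± 0.13 (edgeR adjusted p = 0.699). Ina averaged 156 ± 78.4 CPM in hairy and 138.2 ± 76.8 CPM in glabrous neurons, a log2 change of 0.10 ± 0.29 (edgeR adjusted p = 0.94). Of the 5 genes 0 passed, against 0.0934% of 12852 genes (0.0389% higher and 0.0545% lower in hairy neurons). An unadjusted p under 0.05 was reached by 1277 of the 12852 genes, Nefh and Nefl among them. DESeq2 and limma also called 0 of the 5. In these sums, fewer cells of a type and less RNA per cell cannot be told apart. Without the filter on low counts, Nefh, Nefm and Nefl passed (edgeR adjusted p = 0.000508, 0.00639 and 0.00116), among 342 of 32962 genes. With the Nefh class in the model, Nefh came to -0.06 ± 0.43. That class is cut on Nefh itself, so a small change is built in and the value is no test.

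**Figure D5:**
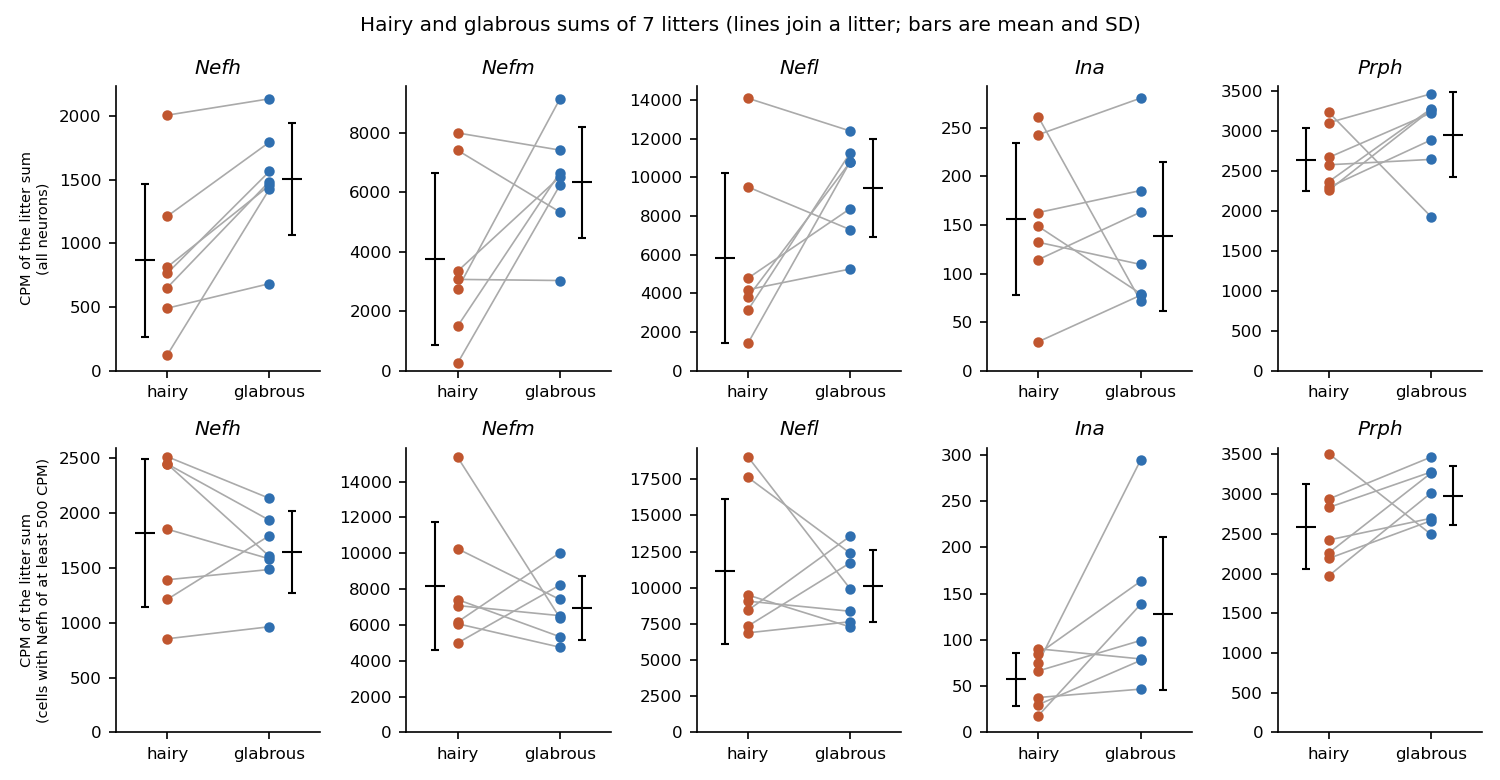
CPM of the summed cells of a litter (y axis) in hairy (orange) and glabrous (blue) neurons for each gene, over all neurons (top) and Nefh-high cells (bottom). Lines join a litter, and bars beside the points are the mean and SD of 7 litters; Nefh is lower in hairy neurons in 7 of 7 litters in the top row, against 3 of 7 in the bottom row.

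Among Nefh-high neurons the heavy, medium and light chains differed between skins by less than the spread of the litters. Nefh averaged 1817 ± 678 CPM in hairy and 1643 ± 374 CPM in glabrous neurons (SD, n = 7 litters), given without a test because the cut used it. Nefm averaged 8192 ± 3569 CPM in hairy and 6958 ± 1786 CPM in glabrous neurons, a log2 change of 0.23 ± 0.22 (edgeR adjusted p = 0.9). Nefl averaged 11136 ± 5025 CPM in hairy and 10136 ± 2474 CPM in glabrous neurons, a log2 change of 0.12 ± 0.19 (edgeR adjusted p = 0.942). The share of Nefh among the 3 chains was 7.87% ± 3.04 in hairy and 7.75% ± 1.65 in glabrous litters. Schwann cell markers summed to a median of 1648 CPM in hairy and 1430 CPM in glabrous Nefh-high cells.

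Ina was the filament gene furthest from 0 in that comparison. It had 18.1, 66.5 and 90.3 CPM as the lowest, median and highest of 7 litters in hairy Nefh-high neurons, against 46.8, 99.3 and 294 CPM in glabrous ones. The hairy value was the lower one in 6 of 7 litters, and the ranges overlapped. The log2 change was -1.01 ± 0.31 (unadjusted p = 0.00836, edgeR adjusted p = 0.63), with -1.17 ± 0.43 on plate 1 and -1.01 ± 0.31 on plate 2. None of the 16 Ntrk3-dominant cells, the type with most Ina, was hairy, and without them the change was -0.58 ± 0.28. Within the Ret-dominant cells of 5 litters, Ina averaged 28.7 ± 28.3 CPM in hairy and 60.9 ± 16.97 CPM in glabrous neurons (SD, n = 5) and the hairy value was lower in 5 of 5, a log2 change of -1.55 ± 0.63 (edgeR adjusted p = 0.76). In the 1 litter with both skins of Ntrk2-dominant cells, the value was 138.3 CPM in the hairy and 119.3 CPM in the glabrous cell. With 1 cell per skin, these values give no direction for that type. The Ret-dominant direction is therefore not extended to other types. Many of these sums rest on 1 cell, and without the filter on low counts the comparison over all types passed (-1.07 ± 0.21, edgeR adjusted p = 0.000458). In that fit 226 of 31432 genes passed.

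Prph in Nefh-high neurons averaged 2589 ± 533 CPM in hairy and 2982 ± 370 CPM in glabrous neurons (SD, n = 7 litters) and was lower in hairy neurons in 6 of 7 litters, with a log2 change of -0.17 ± 0.13 (edgeR adjusted p = 0.885). In Ret-dominant neurons it averaged 2697 ± 583 CPM in hairy and 3437 ± 523 CPM in glabrous neurons (SD, n = 5 litters) and was lower in hairy neurons in 4 of 5. With the receptor type in the model the log2 change was -0.28 ± 0.10 (unadjusted p = 0.00792, edgeR adjusted p = 0.475). Of the 4 genes tested in Nefh-high neurons 0 passed in edgeR, as did 0% of 12087 genes. An unadjusted p under 0.05 was reached by 729 genes, Ina among the 4, and DESeq2 called 89 genes and limma 1, none of them a filament gene.

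For Nefh-low neurons 5 litters could be compared, 3 of them with 1 glabrous cell. One of these cells, in litter L, had 4957 detected genes and 0 counts of Nefh and Ina, which allows up to 3 counts, and the median log2 change over all 11055 genes was 0.56. Without cells of under 10000 genes (4 litters) that median was 0.01, and the changes were -0.27 ± 0.31 for Ina, -0.30 ± 0.20 for Prph, -0.23 ± 0.21 for Nefl and -0.33 ± 0.31 for Nefm. With all cells they were 0.59 ± 1.15, 0.25 ± 0.47, -0.31 ± 0.39 and -0.00127 ± 0.79 for the same genes. The direction for Ina and Prph thus turned with that choice. Of the 4 genes 0 passed in edgeR, as did 0% of 11055 genes, with 55 genes at an unadjusted p under 0.05 and 4 called by DESeq2 and 0 by limma.

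Between day 5 and day 4 no filament gene passed the test in glabrous neurons. The sums at day 5 came from 7 litters and those at day 4 from 2. The log2 changes of day 5 over day 4 were -0.37 ± 0.30 for Nefh, -0.23 ± 0.32 for Nefm, -0.22 ± 0.31 for Nefl, 0.25 ± 0.44 for Ina and -0.28 ± 0.16 for Prph. Prph had at most 3263 CPM in the day 5 litters, against 3277 and 3465 CPM in the day 4 litters. How many of all genes were split in this way by 2 litters was not counted. Age differed between litters only, and plate mostly moved with litter. Of the 5 genes 0 passed, as did 0% of 15185 genes in edgeR, with 422 at an unadjusted p under 0.05 and 3 called by DESeq2.

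Genes that carry, modify or anchor neurofilaments were read from a list of 20, all 20 of which were tested. Between the Ntrk3-, Ntrk2- and Ret-dominant types 0 of 20 passed in edgeR, beside 2.63% of all genes for Ntrk3 over Ret, 1.53% for Ntrk2 over Ret and 3.58% for Ntrk3 over Ntrk2, shares at which fewer than 1 of 20 would pass. The smallest p-values for Ntrk3 over Ret were those of Kif5c, a kinesin, at -0.29 ± 0.11 (edgeR adjusted p = 0.232) and Gsk3b, a kinase of neurofilament tails, at 0.35 ± 0.17 (edgeR adjusted p = 0.387). For Ntrk2 over Ret they were those of Gsk3b at 0.32 ± 0.17 and Kif5a, a kinesin that moves neurofilaments along axons, at 0.31 ± 0.17 (edgeR adjusted p = 0.485 and 0.505). For Ntrk3 over Ntrk2 they were those of Kif5c at -0.25 ± 0.11 and Kif5b at -0.40 ± 0.17 (edgeR adjusted p = 0.279 and 0.292). The median log2 change of the 20 was -0.050, 0.012 and 0.023 in these contrasts, beside 0.0055, 0.020 and -0.0091 over all genes tested.

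Of 11 other intermediate filament genes, 7 were tested between types. Lmna, which encodes the nuclear lamins A and C, fell in Ntrk3-dominant relative to Ret-dominant neurons by 1.03 (SE 0.23, edgeR adjusted p = 0.0149), the 1 call among the 7 there, against 2.63% of all genes (1.25% lower). Ntrk2 over Ret gave 0 calls, with Synm, encoding synemin, at 0.81 ± 0.22 (edgeR adjusted p = 0.0744) and Lmna at -0.83 ± 0.25 (edgeR adjusted p = 0.109). Ntrk3 over Ntrk2 gave 0 calls, with Vim, encoding vimentin, at -0.56 ± 0.22 and Synm at -0.48 ± 0.20 (edgeR adjusted p = 0.225 and 0.257).

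Between skins and between ages 0 genes of either list passed in edgeR, where 0.0934% of all genes passed over all neurons and 0% in Nefh-high cells, in Nefh-low cells and between ages. Over all neurons the smallest p-values were those of Plec, a cross-linker of filaments, at -0.61 ± 0.13 (edgeR adjusted p = 0.17), Trim2 at -0.33 ± 0.13 (edgeR adjusted p = 0.446) and Sync at -0.51 ± 0.22 (edgeR adjusted p = 0.488) for hairy over glabrous. In Nefh-high neurons they were those of Cdk5, a kinase of neurofilament tails, at 0.31 ± 0.11 and Macf1 at 0.41 ± 0.18 (edgeR adjusted p = 0.808 and 0.815). The median log2 change of the 20 genes was -0.10 over all neurons and -0.07 in Nefh-high neurons, beside -0.02 and -0.03 over all genes tested.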

How the data were processed

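Smart-seq libraries of 150 single neurons were made with Nextera XT, which does not mark strand, per the labels' protocols. FastQC, cutadapt, Salmon and mm10 are named in the submitters' processing notes, with no versions and no annotation. The deposited table holds expected counts (estimated by Salmon) as whole numbers for 54082 genes, not normalized between cells.

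CPM used each cell's total count, from 395811 to 1053854; a value of 0 allows up to 3 counts, and intervals cover counting error only. No 2 cells had identical counts. The members and lists were chosen with earlier results of these data known. Cells with Nefh of at least 500 CPM took the type of the receptor with the largest CPM (at least 50), of which Ntrk3, Ntrk2 and Ret are described, and the other cells that of the larger of Tafa4 and Calca (at least 100 CPM).

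The litter was the replicate, and the skin types of a litter pair by the labels; deviations of paired sums correlated between -0.095 and 0.325 in the 7 litters of all neurons and between -0.213 and 0.232 in the 7 of Nefh-high cells. Raw counts were summed per litter and skin, or per litter and type in glabrous cells, and tested over all genes with edgeR 4.0.16 (R 4.3.3; TMM, filterByExpr, quasi-likelihood, litter as block, Benjamini-Hochberg adjusted p of 0.05). Sums for the skin comparison over all neurons and for age needed 2 cells; those for types, Nefh-high and Nefh-low cells took 1, since 2 cells per sum left 2 litters for most pairs of types. The Nefh-high share was tested by exact sign flips over litters. DESeq2 1.42.0, limma 3.58.1 and other cuts, filters, litters, plates and lengths were alternatives. Mixtures were computed with scikit-learn 1.9.0. Median transcript lengths and positions came from GENCODE vM21 (GRCm38). RefSeq promoters matched 2 of the 5 genes, Ina and Prph. Named genes were the 5 members, genes of either list past the threshold, otherwise those with the smallest p, and the 5 genes with the highest rho (mean of at least 10 CPM, a count in at least 20% of cells), with the 3 lowest for Nefh and Prph. A class of Nefh-high cells and 2 of the genes this rule names are not reported here.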

Additional observations from a re-analysis of the deposited data

How the results depend on the processing

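The Ina calls of Ntrk3 over Ret and Ntrk3 over Ntrk2 and the Prph call of Ntrk3 over Ret kept direction and threshold under every alternative run. The share of Nefh-high cells differed by -22.7 points (p = 0.102, exact permutation) with litters of at least 1 cell per skin, and by -42.9 to -31.8 points with a litter left out. The tool, cell cut and litter changed other values as follows, and the cause was not tested.

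Without the filter on low counts, log2 changes over all neurons were -1.07 for Nefh, -1.17 for Nefm and -0.99 for Nefl, and in Nefh-high cells -1.07 for Ina, all past the threshold. So were Nefm 0.40 and Nefl 0.39 (Ntrk3 over Ntrk2), Nefm 0.34 and Nefl 0.36 (Ntrk3 over Ret) and Prph -0.43 (Ntrk2 over Ret). In Nefh-low cells Nefm turned to 0.10.

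Between types, Prph passed under DESeq2 at -0.45 (Ntrk2 over Ret). Nefm turned to 0.10 for Ntrk2 over Ret with a cut at 1000 CPM. With a litter left out, Ntrk2 over Ret ranged from -0.28 to 0.42 for Nefm and from -0.20 to 0.14 for Nefl.

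Between skins over all neurons, Ina turned to -0.38 within plate 1, -0.12 with limma, -0.26 with sums of 1 cell and -0.45 with the Nefh class in the model, and ranged from -0.13 to 0.31 with a litter left out. In Nefh-high cells, Nefm turned to -0.094 and Nefl to -0.019 within plate 2, and Nefm to -0.014 with the receptor type in the model. Nefl ranged from -0.040 to 0.23 with a litter left out. In Nefh-low cells, Nefm turned to 0.70 within plate 2, Ina to -0.13 and Prph to -0.072 within plate 1, and without cells of under 10000 genes Ina turned to -0.27 and Prph to -0.30. With a litter left out, Nefm ranged from -0.43 to 0.34, Ina from -0.17 to 1.12 and Prph from -0.24 to 0.48. For age, Nefm turned to 0.042 and Nefl to 0.012 in Nefh-high cells, and with a litter left out Nefl ranged from -0.52 to 0.13 and Ina from -0.15 to 0.81.

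Without the replicate block, Nefh over all neurons was -0.83 (edgeR adjusted p = 0.495), Ina in Nefh-high cells -1.08 (edgeR adjusted p = 0.613), and Nefm turned to -0.088 for Ntrk3 over Ret. It gave 580 calls there, 359 for Ntrk2 over Ret and 7 in Nefh-high cells. The block changed no other call of the 5 genes. Genes called by DESeq2 against edgeR numbered 337 against 12 over all neurons, 89 against 0 in Nefh-high cells, 4 against 0 in Nefh-low cells, 531 against 195 for Ntrk2 over Ret, 857 against 456 for Ntrk3 over Ntrk2 and 681 against 334 for Ntrk3 over Ret. Without the filter on low counts edgeR called 342 of 32962 genes over all neurons and 226 of 31432 in Nefh-high cells. With the filter, limma called 21 and 1. Without that filter edgeR called 689 for Ntrk2 over Ret, 950 for Ntrk3 over Ntrk2 and 799 for Ntrk3 over Ret, of 31536 genes each. With a litter left out, calls over all neurons ranged from 0 to 15, for Ntrk2 over Ret from 53 to 239, for Ntrk3 over Ret from 150 to 349 and for Ntrk3 over Ntrk2 from 274 to 479. For Ntrk2 over Ret, adding hairy cells gave 362 calls and the cut at 1000 CPM 85. Over all neurons 0 genes passed within either plate or with the Nefh class in the model, and 1 with sums of 1 cell; in Nefh-high cells 11 passed with the receptor type in the model, 9 in Ret-dominant cells and 2 without Ntrk3-dominant cells. No sums of at least 2 cells were run for types or Nefh-low cells.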

Other observations

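The neuron labelled with both skin types, from litter A_B, was Nefh-high and Ret-dominant. It had 2741 CPM of Nefh, 8811 CPM of Nefm, 15828 CPM of Nefl, 60.2 CPM of Ina and 3673 CPM of Prph. Each of these lay within the range of the 20 glabrous Ret-dominant cells.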
